A study of Marmota flaviventris with 43 samples.

Results

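The genes described were those with a very long entry in the deposited length column. Of the 11381 genes in the authors' normalized table, 413 had a mean length of at least 1000 bases, and they are called long-length genes below. They were chosen by the deposited length and by their presence in that table, so both are given as a description, and abundance is partly fixed by the latter. The RNA came from blood of Marmota flaviventris, the yellow-bellied marmot, a burrowing squirrel of mountain meadows, and was sequenced in 43 samples after removal of globin transcripts. The dispersers (16 samples) were yearlings that afterwards left their birthplace, and 27 samples came from animals labelled resident. The labels give no age for the residents, and no sex and no treatment for either group. They also do not say that every sample is a different animal. The tests treat the samples as independent, which would fail if an animal was sampled more than once. Replicate numbers were assigned here within each group in the order of deposit and only name a sample. Whole blood mixes red cell precursors, platelets and several kinds of white cell, so fewer cells of a type and less RNA per cell cannot be told apart.

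Most mammalian genes are divided into exons that are joined after transcription, and a single exon is usually short, apart from the last one. A small class of genes has no intron. Among those known from mammals in general are the replication-dependent histones, many G protein-coupled receptors and copies of genes made by reverse transcription. None of the 413 could be assigned to such a family, since the files give Ensembl IDs without names. Of the 22389 IDs, 0 matched the RefSeq gene table of this species. The IDs begin with ENSSTOG, and the sources used here do not say from which species' annotation they come. If it is another species, that lookup could only give 0. Without names the blood markers could not be looked up either, and genes are given by ID.

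The long-length genes ran from 1001.8 to 4917 bases, with a median of 1311, against a median of 154 for the other 10968 genes. Lengths of under 1250 bases were found in 179 of them, 83 had 1250 to under 1500, 81 had 1500 to under 2000, and 70 had 2000 or more. The shortest inside the limit was ENSSTOG00000026164 at 1001.8 bases, with 39.1% GC and 0.949 CPM ± 0.762 (SD, n = 43), counts scaled to the size of the library. The longest outside it was ENSSTOG00000019486 at 999 bases, with 69.1% GC and 8.17 CPM ± 10.1 (SD, n = 43). Over the whole count table, 811 genes reached 1000 bases, and 50.9% of these were kept in the normalized table, beside 50.8% of the shorter genes.

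The deposited values of the long-length genes mostly had the form that 1 continuous stretch of sequence gives. In 277 of 413 (67.1%) the length was a whole number of bases and so was the product of length and GC fraction, within 0.0001, as it must be if both come from the same single stretch. Among the other genes 937 of 10968 (8.54%) had this form. Genes of this form are called single-stretch genes below, which is a name for the form of the values, since no source used here says what the length column averages over. The length of 258 of the 277 (93.1%) was a multiple of 3, as a coding length is, against 65.2% of the 937. A further 45 long-length genes (10.9%) had a whole length without a whole GC count. The length of the remaining 91 (22.03%) was not whole, and the smallest factor that made it whole was 2 in 38 of them, 3 in 24 and between 4 and 10 in the others. A long entry thus went with a whole length and GC count in most of these genes, but not in all.

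**Figure D1:**
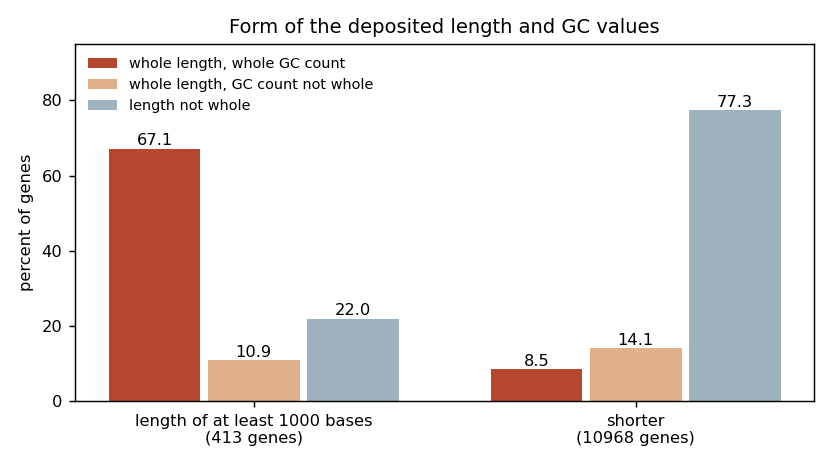
Percent of genes (vertical axis) whose deposited length and GC count are both whole, whose length alone is whole, or whose length is not whole, for the 413 long-length genes (left) and the 10968 shorter genes (right). Both values are whole in 67.1% of the former and 8.54% of the latter, and the length is not whole in 22.03% and 77.3%.

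The long-length genes were of low to moderate abundance. Their median was 8.56 CPM per gene, a scale that is not divided by length and that sets the counting precision, and 16.1 for the other genes. Of the long-length genes 27.4% fell into the lowest of 5 abundance classes of equal size and 9.93% into the highest, while each of these classes held 19.7% and 20.4% of the others. Divided by the length column the gap was wider, with medians of 6.30 and 90.3 CPM per kilobase. The genes were chosen by that column, so a wider gap after dividing by it is partly fixed by the choice. If that column averages over pieces of a gene, dividing by it overstates the level of genes made of several. Among single-stretch genes only, which is a choice made after seeing the data, the medians were 5.14 and 29.3 CPM per kilobase. In CPM per gene they were close, 7.07 for the long-length and 7.78 for the shorter single-stretch genes. Most of the gap in CPM was thus not seen between genes of this form. The long-length genes were lower on each of these scales, by an amount that differed between them. The scales per kilobase are not separate support, since they contain the length used for the choice.

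ENSSTOG00000022912 was the most abundant of them, at 823 CPM ± 428 (SD, n = 43) and 568 CPM per kilobase, and it ranked 186 among all genes of the table in CPM. Its length of 1449.5 bases and GC content of 44.3% were not those of a single-stretch gene. It ran from 389 CPM over a median of 675 to 1872 in dispersers, and from 356 over 795 to 1833 in residents, so the groups overlapped nearly completely. The 2 long-length genes with the most similar pattern over the 43 libraries were ENSSTOG00000005370 (Pearson's r of log2 CPM 0.73) and ENSSTOG00000024446 (0.73), at 31.9 and 26.2 CPM. ENSSTOG00000020957, a single-stretch gene of 1239 bases with 67.2% GC, came second in abundance at 602 CPM ± 533 (SD, n = 43). Its values lay between 19.9 and 1243 CPM in dispersers and between 18.5 and 2336 in residents, with medians of 497 and 487. This gene varied far more between libraries than the most abundant one.

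The longest genes differed widely in level. The longest of all, ENSSTOG00000029201, has 4917 bases and 54.7% GC and was barely detected, at 0.985 CPM ± 0.679 (SD, n = 43). ENSSTOG00000029072, with 4752 bases and 38.9% GC, reached 86.8 CPM ± 52.5 (SD, n = 43). It ran from 27.4 over 68.1 to 332 CPM in dispersers and from 34.9 over 80.2 to 152 in residents, and its highest value, in disperser replicate 1, stood well above the next one of 168.

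As a share of all counts the long-length genes were minor. They make up 3.63% of the genes of the normalized table and took 0.837% to 1.61% of the counts of a library, with a median of 1.23%. The 10 with the most counts held 30.4% of these, and 31 held 50%. The share ran from 0.852% over a median of 1.06% to 1.59% in dispersers, and from 0.837% over 1.31% to 1.61% in residents. The ranges coincided, with the disperser median the lower. These shares are of total counts. On that scale the median log2 fold change of dispersers over residents was below 0 over all genes tested as well. It was -0.13, beside -0.19 for the long-length genes. No p-value is given for a summed level over genes chosen in this way.

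**Figure D2:**
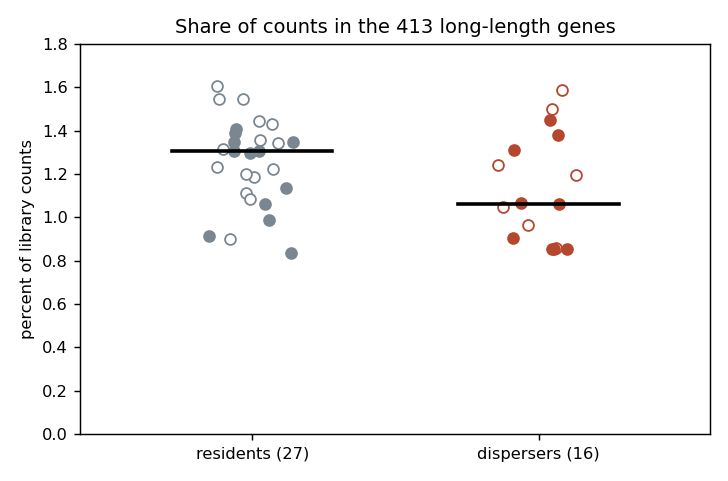
Percent of each library's counts in the 413 long-length genes (vertical axis) for 27 residents and 16 dispersers, 1 point per library, with the group median as a black line at 1.31% and 1.06%. The first removed term, defined in the text, is 1 in the 21 filled points and 0 in the 22 open ones, and the groups overlap over nearly their whole range.

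The long-length genes had a higher median spread between libraries than the others when counts were used. In the authors' normalized values it was higher in 4 of 5 abundance classes, but not in the lowest class or over all genes. The median SD of log2 CPM over 43 libraries was 0.81 for the long-length genes and 0.69 for the others. The biological coefficient of variation fitted by edgeR, which leaves out counting error, had medians of 52.9% and 44.8%. The difference was found in each abundance class: the median SDs were 0.91 and 0.86 in the lowest class, 0.89 and 0.72 in the second, 0.79 and 0.62 in the third, 0.63 and 0.55 in the fourth, and 0.82 and 0.59 in the highest. When genes were divided by abundance and GC content at once, the long-length genes had the higher median in 17 of the 24 combinations that held at least 5 of them. Between long-length and shorter single-stretch genes the gap was smaller. Their median SDs of log2 CPM were 0.82 and 0.78, and their median coefficients of variation 54.1% and 50.1%. Much of the higher spread was thus shared with shorter genes of this form.

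In the authors' normalized log2 values the order of the overall medians was the opposite, 0.68 for the long-length genes and 0.70 for the others. Among single-stretch genes it was 0.69 for the long-length and 0.79 for the shorter ones. The long-length genes had the higher median in 9 of the same 24 combinations. Each of these values is log2(RPKM + 0.5), shifted by the same amount for all genes of a library, where RPKM is CPM per kilobase of the length column. Unlike the CPM used elsewhere, this CPM is not TMM-scaled and divides by the total over the genes of the normalized table. On that scale the constant of 0.5 RPKM is worth 0.656 CPM for a long-length gene of median length. It is worth between 0.501 and 2.46 CPM over all 413, and 0.077 CPM for a median other gene. Of all values, 8.16% lay under it in the long-length genes and 0.801% in the others, and in 15 long-length genes the median library did. The orders differed most at low abundance, where the median SD of normalized values was 0.63 for the long-length genes and 0.96 for the others in the lowest class. In the 4 classes above it the medians were 0.78 and 0.74, 0.75 and 0.63, 0.61 and 0.56, and 0.82 and 0.59. The SD of normalized values was 0.72 in the genes under 1250 bases and 0.57 in those of 2000 bases or more, while that of log2 CPM was 0.81 and 0.75.

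**Figure D3:**
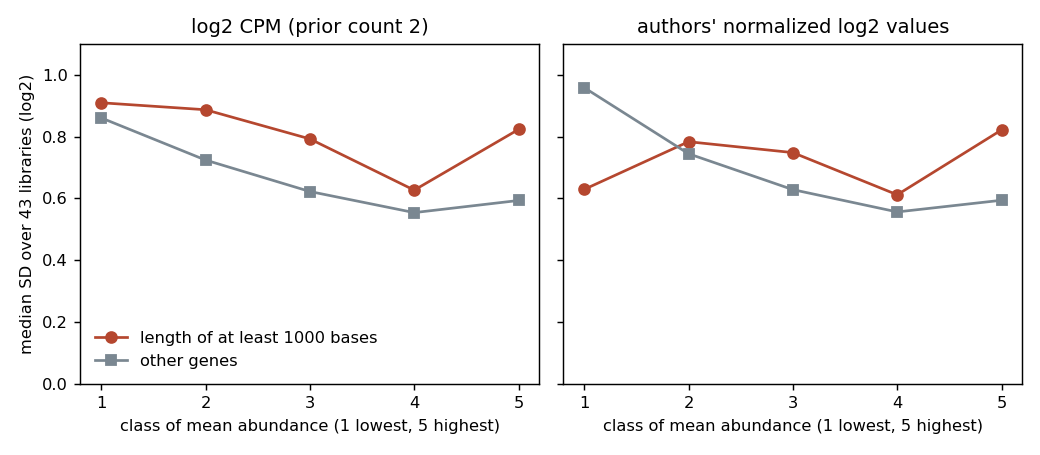
Median SD over 43 libraries (vertical axes, log2 units) in 5 classes of mean abundance for the long-length genes (circles) and the other genes (squares), from counts on the left and from the authors' normalized values on the right. In the lowest class the medians are 0.91 and 0.86 on the left, and 0.63 and 0.96 on the right.

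The steadiest and the most variable long-length gene lay far apart. ENSSTOG00000024574, with 50.6% GC, had the lowest SD of log2 CPM at 0.20 and stayed between 97.4 and 192 CPM in all libraries. ENSSTOG00000024273, with 69.4% GC, had the highest at 2.78, and ran from 0.954 over 43.8 to 645 CPM in dispersers and from 0.513 over 11.2 to 827 in residents. Neither differed between the groups past the threshold (edgeR's quasi-likelihood test, adjusted p = 0.9998 for both).

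In GC content the long-length genes had the same centre as the others and wider flanks. The medians were 51.5% and 51.7%, and the SDs over genes 9.70 and 8.24 percentage points. Of the long-length genes 27.1% belonged to the lowest of 5 GC classes, which ends at 43.3%, and 22.03% to the highest, which begins at 59.4%, against 19.7% and 19.9% of the others. The 277 single-stretch genes among them had a median of 53.7% and the other long-length genes one of 46.7%.

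The libraries differed from each other along GC content. The authors' regressed table is the normalized one with 5 terms taken out, none of them named in the sources used here. One of these, the first removed term below, divides the libraries into 21 at 1 (9 dispersers, 12 residents) and 22 at 0 (7 dispersers, 15 residents). Total counts ran from 5089917 to 15237506 at 1 and from 4592338 to 9950786 at 0, and the part of depth in what follows was not tested. A second of the removed terms also takes 2 values. It is 1 in 15 libraries (4 dispersers, 11 residents), most of which are at 0 of the first. It was not in the model with the first term, and its part in the differences given for that term was not tested. The 5 terms together took out a median of 42.1% of the variance of a long-length gene and 40.3% of that of another gene.

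Between the values of the first removed term, with the group in the model, 261 of the 392 long-length genes tested differed at an adjusted p of 0.05 (edgeR's quasi-likelihood test), which is 66.6% and near the 63.1% of all genes. Of these, 110 were higher at 1 (28.1% of those tested, 29.6% over all genes) and 151 lower (38.5%, against 33.6%). Scaled by total counts instead of TMM, 69 were higher and 178 lower (63.0% in all, beside 57% of all genes), and the median log2 fold change moved from -0.16 to -0.41 for the long-length genes and from -0.05 to -0.30 over all genes. Within residents alone 51.0% differed, beside 45.6% of all genes, and within dispersers alone 55.6%, beside 46.6%. Without 1 library at a time the count stayed between 247 and 268.

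The direction followed GC content. Among the 106 long-length genes tested in the lowest GC class 96 were lower at 1 and 1 was higher (91.5% in all, beside 83.5% of other genes of that class), with a median log2 fold change of -1.06 beside -0.77. In the highest class 71 of 86 were higher and 1 was lower (83.7%, beside 86.2%), with a median of 1.11 beside 0.97. In the middle class 28.9% differed, beside 35.6% of the others, with medians of -0.10 and -0.08.

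**Figure D4:**
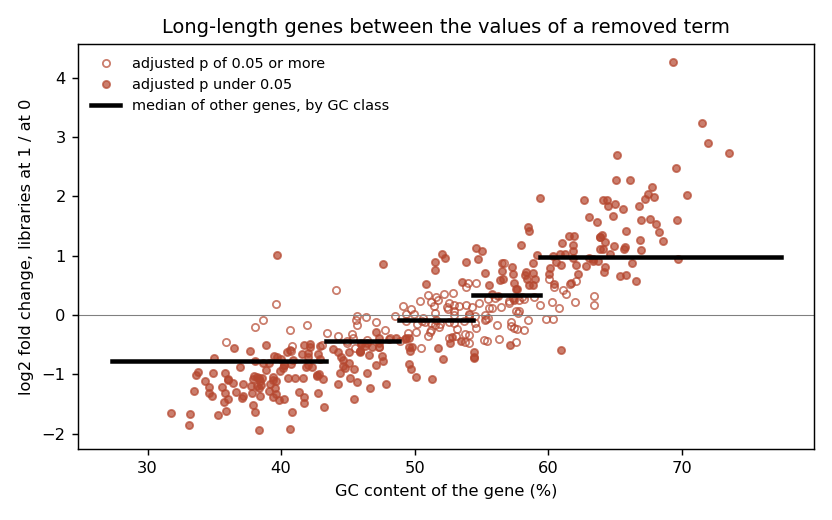
Log2 fold change of libraries with the first removed term at 1 over those at 0 (vertical axis) against the GC content of the gene in percent (horizontal axis), 1 point per long-length gene tested, filled where the adjusted p is under 0.05. Black lines mark the median of the other genes in each of 5 GC classes, from -0.77 in the lowest to 0.97 in the highest, and the points rise along them.

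ENSSTOG00000020940, the long-length gene with the highest GC content (73.5%), is an example. It ran from 9.19 over 18.4 to 31.8 CPM in the 21 libraries at 1 and from 0 over 1.78 to 10.5 CPM in the 22 at 0, so the ranges overlapped little (log2 fold change 2.73, SE 0.35, edgeR adjusted p = 8.2e-08). ENSSTOG00000019598, the one with the lowest GC content (31.8%), went the other way, from 0.736 over 6.08 to 13.3 CPM at 1 and from 3.51 over 14.8 to 58.3 at 0 (log2 fold change -1.65, SE 0.30, edgeR adjusted p = 1.5e-05). ENSSTOG00000024273, the most variable, had medians of 63.9 CPM at 1 and 5.51 at 0 (log2 fold change 4.26, SE 0.60, edgeR adjusted p = 4.9e-07). For ENSSTOG00000024574, the least variable, the medians were 130.8 and 136.1 CPM, a difference that did not pass the test (edgeR adjusted p = 0.612).

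The long-length genes did not vary as 1 group. The median Pearson's r of log2 CPM over all pairs of them was 0.04, and over pairs of other genes 0.00021, each across the same 43 libraries, so that all pairs share their depth and base composition, whose part in r was not tested. Within the lowest GC class the median r was 0.59 and within the highest 0.62, while between these classes it was -0.51. In the authors' regressed values these became 0.41, 0.31 and -0.22. Length therefore joined genes whose levels moved in opposite directions.

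The comparison of dispersers with residents asked whether blood transcripts differ before animals leave. No long-length gene differed past the threshold. By edgeR's quasi-likelihood test 0 of the 392 tested had an adjusted p under 0.05, as for all 10921 genes (0%), with 0.9998 as the smallest value. The long-length genes with an unadjusted p under 0.05 numbered 20 (5.10%), beside 2.6% of all genes tested, namely 9 higher in dispersers (1.12% of all genes) and 11 lower (1.48%). DESeq2 gave 18 of 413 (4.36%, beside 2.66% of all genes) and limma-voom 13 of 392 (3.32%, beside 2.76%), and both gave 0 at an adjusted p of 0.05. The 21 long-length genes that did not pass the filter averaged 0.683 to 1.69 CPM, and when all genes of the normalized table were fitted, 2 of them had an unadjusted p under 0.05 and 0 an adjusted one.

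In the main fit the long-length share of small p-values was 5.10%, beside 2.6% of all genes, and no test was made of these shares. The difference between these shares moved with the setting, and so did the balance of higher and lower genes. Scaled by total counts there were 4 higher and 13 lower (4.34%, beside 3.31%). With the first removed term as a covariate there were 10 and 11 (5.36%, beside 3.12%). Where that term is 0 there were 23 and 13 of 393 (9.16%, beside 8.02%), and where it is 1 there were 3 and 14 of 379 (4.49%, beside 2.81%). Of the 20 genes 19 were tested in each of these fits, and 11 recurred among the former and 2 among the latter. With the 5 removed terms as covariates the share was 11.5%, near the 11.1% of all genes, and with GC and length trends taken out as offsets 5.87%, beside 5.38%. By limma it was 2.91% in the normalized values, beside 2.45%, and 5.08% in the regressed values, beside 6.41%. Without a filter it was 5.08%, beside 9.93%, and an adjusted p under 0.05 was found for 0 long-length genes and for 0.00491% of all genes.

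The median log2 fold change of the long-length genes was -0.06, beside -0.01 over all genes tested, and 38.5% of them had a value above 0, beside 47.8% of all genes. The sign of this median was not stable: it became 0.07, beside 0.04 over all genes, with the 5 removed terms as covariates. Among the libraries where the first removed term is 0 it was -0.01, beside -0.03, and where it is 1 it was -0.15, beside -0.04. Scaled by total counts it was -0.19, beside -0.13. The precision was somewhat lower than for other genes, with a median standard error of 0.26 against 0.21. The 95% interval lay inside 2-fold for 84.7% of the long-length genes and 89.7% of all genes, and a fitted change of more than 2-fold was found in 4 of them (1.02%) and in 0.357% of all genes. Long-length and shorter single-stretch genes were alike in this. Their median standard errors were 0.26 and 0.25, with 82.6% and 81.5% inside 2-fold and 1.51% and 1.04% over it. Of the other long-length genes 89.0% lay inside 2-fold and 0% had a fitted change over it.

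Of the 20 long-length genes with a small unadjusted p, 17 were single-stretch genes, including all 9 that were higher, and 265 of the 392 tested had this form. The share with a small p was 6.42% in these 265, 2.36% in the other 127 long-length genes and 3.23% in the 868 single-stretch genes of under 1000 bases. The 9 higher ones had a median log2 fold change of 0.66 and a median biological coefficient of variation of 58.6%, and 4 of them had their highest value in disperser replicate 1, as did 15 of the 113 other genes with a small p in this direction. The 11 lower ones had a median of -0.48 and a median coefficient of 48.0%, and 0 of them were highest in that library. Without disperser replicate 1 the counts were 5 higher and 12 lower of 395 (4.30%, beside 2.63% of all genes).

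Both of the higher genes with the smallest p rested on that library. ENSSTOG00000024733, a single-stretch gene of 1398 bases with 45.4% GC, ran from 0.468 over 2.14 to 135 CPM in dispersers and from 0 over 2.16 to 12.1 in residents. The second highest disperser had 16.7 CPM, and 8 of 16 dispersers were above the resident median. Its log2 fold change of 1.77 (SE 0.54, edgeR unadjusted p = 0.00196, adjusted p = 0.9998) became 0.05 without disperser replicate 1 and was 0.01 by DESeq2. ENSSTOG00000028876 (1449 bases, 41.7% GC) reached 41.6 CPM in the same library and at most 5.77 in any other, with medians of 0.643 CPM in dispersers and 1.07 in residents. Its log2 fold change of 1.77 (SE 0.51, edgeR unadjusted p = 0.00125, adjusted p = 0.9998) became 0.30 without that library. In both genes the median disperser was thus not above the median resident.

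The 2 lower genes with the smallest p did not pass the threshold either, and their fitted values rested less on 1 library, with a range of -0.49 to -0.39 and of -0.65 to -0.48 on the log2 scale when each library was left out in turn. ENSSTOG00000026585, a single-stretch gene of 1380 bases with 60.4% GC, ran from 2.70 over 4.49 to 7.56 CPM in dispersers and from 4.12 over 5.63 to 9.37 in residents. The groups overlapped, but 13 of 16 dispersers were below the resident median. Its log2 fold change was -0.43 (SE 0.13, 95% interval -0.69 to -0.17, edgeR unadjusted p = 0.00158, adjusted p = 0.9998), and -0.45 and -0.42 where the first removed term is 0 and where it is 1. It was -0.29 with the 5 removed terms (edgeR unadjusted p = 0.0504) and -0.21 by limma in the regressed values (unadjusted p = 0.0269). ENSSTOG00000010337, a single-stretch gene of 2133 bases with 47.6% GC, was well expressed, from 32.9 over 91.7 to 172 CPM in dispersers and from 66.7 over 131 to 341 in residents. Again the ranges overlapped, with 14 of 16 dispersers below the resident median. Its log2 fold change was -0.57 (SE 0.18, 95% interval -0.92 to -0.21, edgeR unadjusted p = 0.00273, adjusted p = 0.9998). It was -0.56 and -0.39 within the libraries at 0 and at 1, and -0.31 with the 5 removed terms (edgeR unadjusted p = 0.0418). By limma it was -0.22 in the regressed values (unadjusted p = 0.0740). This gene also differed with the first removed term (log2 fold change -0.77, SE 0.13, edgeR adjusted p = 5.2e-06).

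**Figure D5:**
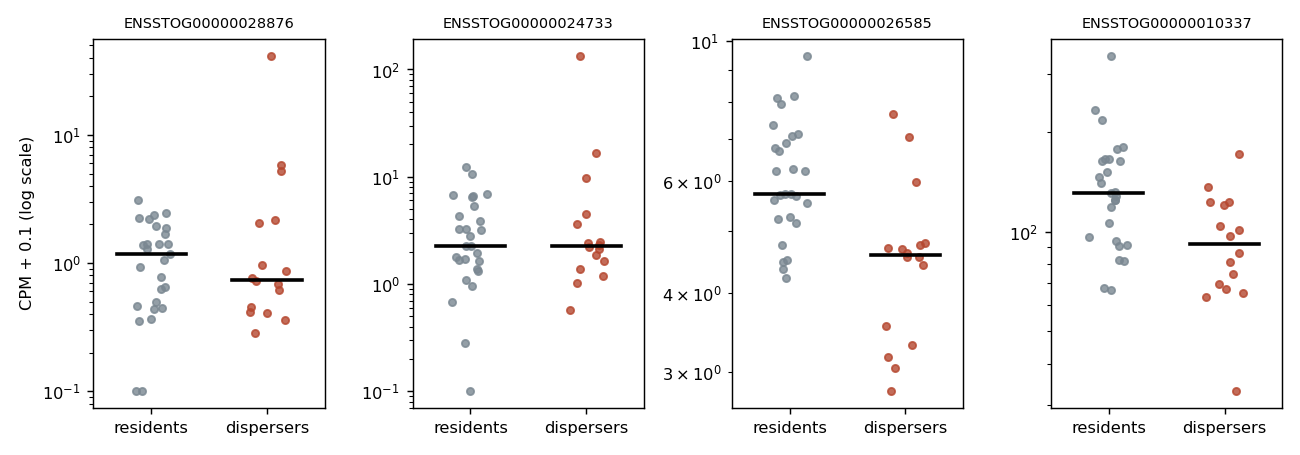
CPM + 0.1 on log axes in 27 residents and 16 dispersers, 1 point per library with the group median as a line, for 4 long-length genes, the 2 higher and the 2 lower ones whose unadjusted p was smallest. In the 2 panels on the left disperser replicate 1 is the highest point, at 41.6 and 135 CPM, and in the 2 on the right most dispersers lie under the resident median.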

How the data were processed

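The deposited count table gives, for each gene, its counts in every library, its mean length and the fraction of GC, per the file headers. The authors' normalized and regressed tables hold log2 values, the latter centred on 0. The submitters' processing notes name limma, HTSeq, TopHat2 2.1.0 and Trim Galore 0.3.1 without roles. Genome build and annotation: not given in the sources used here. The gene IDs begin with ENSSTOG, and those sources do not say whether the length and GC columns describe gene models of the marmot. The normalized values were recomputed from the counts with a largest deviation of 3.85e-08.

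Counts were fitted in edgeR 4.0.16 (R 4.3.3) over all genes passing filterByExpr with a minimum count of 10 (10921, of which 392 are long-length genes), scaled by TMM, with the robust quasi-likelihood test, no covariate and Benjamini-Hochberg adjustment over all genes. CPM are TMM-scaled, except where the authors' normalized values are recomputed. The log2 CPM use a prior count of 2, and standard errors are approximate. Total counts ranged from 4592338 to 15237506 per library. A coefficient of variation, a share or an SD over genes carries no test. Alternatives used DESeq2 1.42.0, limma 3.58.1, other scalings, filters, covariates and offsets. The scripts were tested on simulated data.

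The genes and lists were chosen with earlier results of these data known. Genes were named by rule: the smallest p in each direction (2 each), and the extremes of length, abundance, spread, GC content and the length limit, with the 2 most like the most abundant. Fits with the first removed term and within its values were added after seeing the data. Sequences were not used here.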

Additional observations from a re-analysis of the deposited data

How the results depend on the processing

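No long-length gene passed an adjusted p of 0.05 in any of 14 alternative settings or in the 43 fits that left out 1 library (0 in each). No paired analysis was made, because the labels name nothing that would pair a disperser with a resident. The replicate numbers used here were assigned in the order of deposit. The count at an unadjusted p under 0.05, 20, was 13 with limma-voom, 12 with limma on the normalized values, 45 with the 5 removed terms as covariates (11.5%, beside 11.1% of all genes), 36 where the first removed term is 0 (9.16%, beside 8.02%) and 8 among genes of at least 1500 bases, a shorter list. It stayed within 1.5 times in the other 9 settings and ranged from 16 to 26 with 1 library left out, where the long-length share was above that of all genes in 43 of 43 fits, which share most libraries. It was under that of all genes without a filter (5.08% and 9.93%) and in the regressed values (5.08% and 6.41%). Of the 20 genes, 16 were also at a small p by DESeq2, 10 in the normalized values and 7 with the 5 terms. The median log2 fold change ranged from -0.11 to -0.03 with 1 library left out.

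The log2 ratio of median abundance to the other genes, -0.91 in CPM, was -3.84 per kilobase, -2.51 per kilobase among single-stretch genes and -3.77 in the normalized values. Apart from that in CPM, these values divide by the length by which the genes were chosen. The difference in median SD, 0.13, was -0.0206 in the normalized and -0.0096 in the regressed values, and 0.0489, 0.0727 and 0.23 in abundance classes 1, 4 and 5. It was 0.15 with a prior count of 0.5. The cause of these changes was not tested. A count in every library was found for 82.6% of the long-length genes and 89.5% of the others, and the part of depth in this was not tested.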

Other observations

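Long genes outside the normalized table had the single-stretch form still more often. Of the 398 genes with a length of at least 1000 bases that the authors' normalized table does not hold, 325 (81.7%) had a whole length and a whole GC count, beside 67.1% of the 413 that it holds. Their median total over all 43 libraries was 15 counts, beside 7 for shorter genes outside the table, and 23 had no count at all.

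A few libraries held the highest value of many long-length genes. Disperser replicate 14 had the highest CPM of 43 of them (10.4%, beside 12.4% of the other genes), resident replicate 24 of 39 (9.44%, beside 6.70%) and resident replicate 6 of 32 (7.75%, beside 6.18%). Disperser replicate 3 and resident replicate 9 had the highest value of 0 long-length genes, beside 66 and 87 other genes.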
